A study of Mus musculus with 21 samples.

Results

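Larp1, Yipf6, Snrnp35, Ralgps2 and Btg2 are 5 genes whose RNA in mouse midbrain lay on separate levels between mice, in part without regard to treatment. They were selected on these measured levels by their gene symbols, and each symbol had 1 row in both deposited tables, among 33829 genes listed for the pre-treatment mice and 55385 listed for the delayed treatment mice. All 5 passed the filter on low counts, which left 22641 tested genes in the former experiment and 21922 in the latter. Since the choice used the values themselves, levels, gaps and fold changes of these 5 genes are given as a description without a p-value.

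The samples came from 21 male C57BL/6 mice aged 6 weeks per the labels, in 7 groups of 3, all given intraperitoneal injections. In the pre-treatment experiment, control mice received ddH2O for 10 days, MPTP mice received ddH2O for 5 days and then MPTP at 30 mg/kg per day for 5 days, and irisin + MPTP mice received irisin at 200 μg/kg per day for 5 days before the same MPTP. In the delayed experiment, control mice received ddH2O for 10 days, irisin mice ddH2O for 5 days and then irisin for 5 days, MPTP mice MPTP for 5 days and then ddH2O for 5 days, and MPTP + irisin mice MPTP for 5 days and then irisin for 5 days, at the same doses. MPTP is a neurotoxin used to model the loss of dopaminergic neurons in Parkinson's disease, and irisin is a hormone released from muscle. Total counts were 66.7 to 75.6 M (mega) per pre-treatment mouse and 48.8 to 77.2 M per delayed mouse. Listed markers of dopaminergic neurons (Th, Slc6a3, Slc18a2, Ddc and Pitx3) summed to 165 to 431 CPM (counts scaled to library size) and 136 to 308 CPM. Choroid plexus markers ran from 6.44 to 1593 CPM and from 32.8 to 1610 CPM between mice. In the delayed experiment Sftpc, a lung surfactant gene chosen after its values were seen, was at 9.68 to 30.7 CPM in 8 mice and at no more than 0.34 CPM in the other 4. Those 4 were control mice 1 and 2, MPTP mouse 3 and MPTP + irisin mouse 1, which were set apart by none of the 5 genes. They were not free of such signals. Clps, a pancreas gene also chosen after its values were seen, had 11.5, 16.9, 33.9 and 28.8 CPM in them. Irisin mice 2 and 3, which held Sftpc, had no more than 0.07 CPM of Clps. The part of these signals in the results was not tested.

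The 5 genes work in unrelated steps of gene expression and cell signalling. Larp1 encodes an RNA-binding protein that controls translation and stability of mRNAs of the translation machinery downstream of mTOR. Yipf6 encodes a membrane protein of the Golgi in the YIP1 family, and Snrnp35 a protein of the U11/U12 particle of the minor spliceosome, which removes a rare class of introns. Ralgps2 encodes an exchange factor that activates Ral GTPases. Btg2 is an antiproliferative gene of the BTG/TOB family induced by p53 and by growth factors and neuronal activity, and its protein recruits the CCR4-NOT deadenylase.

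Their positions on GRCm38 do not place them together. Larp1 (ENSMUSG00000037331) lies at chr11:58009064-58062034 on the plus strand and Yipf6 (ENSMUSG00000047694) at chrX:98936316-98949017 on the plus strand. Snrnp35 (ENSMUSG00000029402) lies at chr5:124483134-124491124 on the plus strand. Both Ralgps2 (ENSMUSG00000026594), at chr1:156804166-156939626, and Btg2 (ENSMUSG00000020423), at chr1:134075170-134079120, are on the minus strand of chromosome 1. All are protein coding in GENCODE vM21, and their structures are varied. Btg2 has 2 exons and 2743 exonic bases, whereas Ralgps2 has 23 exons and 12085 exonic bases. The longest merged exon held 92.4% of the exonic bases of Btg2, 87.3% of Yipf6, 74.4% of Snrnp35, 50.9% of Larp1 and 41.6% of Ralgps2, against a median of 54.6% over all tested genes of the pre-treatment experiment.

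To ask how separate the levels were, the mice of each experiment were ordered by log2(CPM + 0.5) for each gene. A gene was called two-level where the largest gap between neighbouring mice in that order was at least 0.5 on this log2 scale, or 1.41-fold, and wider than the spread of the mice on either side. All 5 of the 5 genes met this description in the pre-treatment experiment, against 7.37% of all tested genes (1669 of 22641). Only 2 of the 5 met it in the delayed experiment, Larp1 and Yipf6, against 5.50% of all tested genes (1206 of 21922). Nothing is read from these shares, since the genes were picked for their levels. The data therefore go against the description of separate levels for Snrnp35, Ralgps2 and Btg2 in the delayed experiment. There the gaps of Ralgps2 (0.47) and Snrnp35 (0.42) lay just under the limit of 0.5, and Btg2 had a gap of 0.93 but a spread of 1.68 among the mice above it. Among those of the 5 genes that met the description, the gap closest to the limit was that of Ralgps2 in the pre-treatment experiment, at 0.79.

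**Figure D1:**
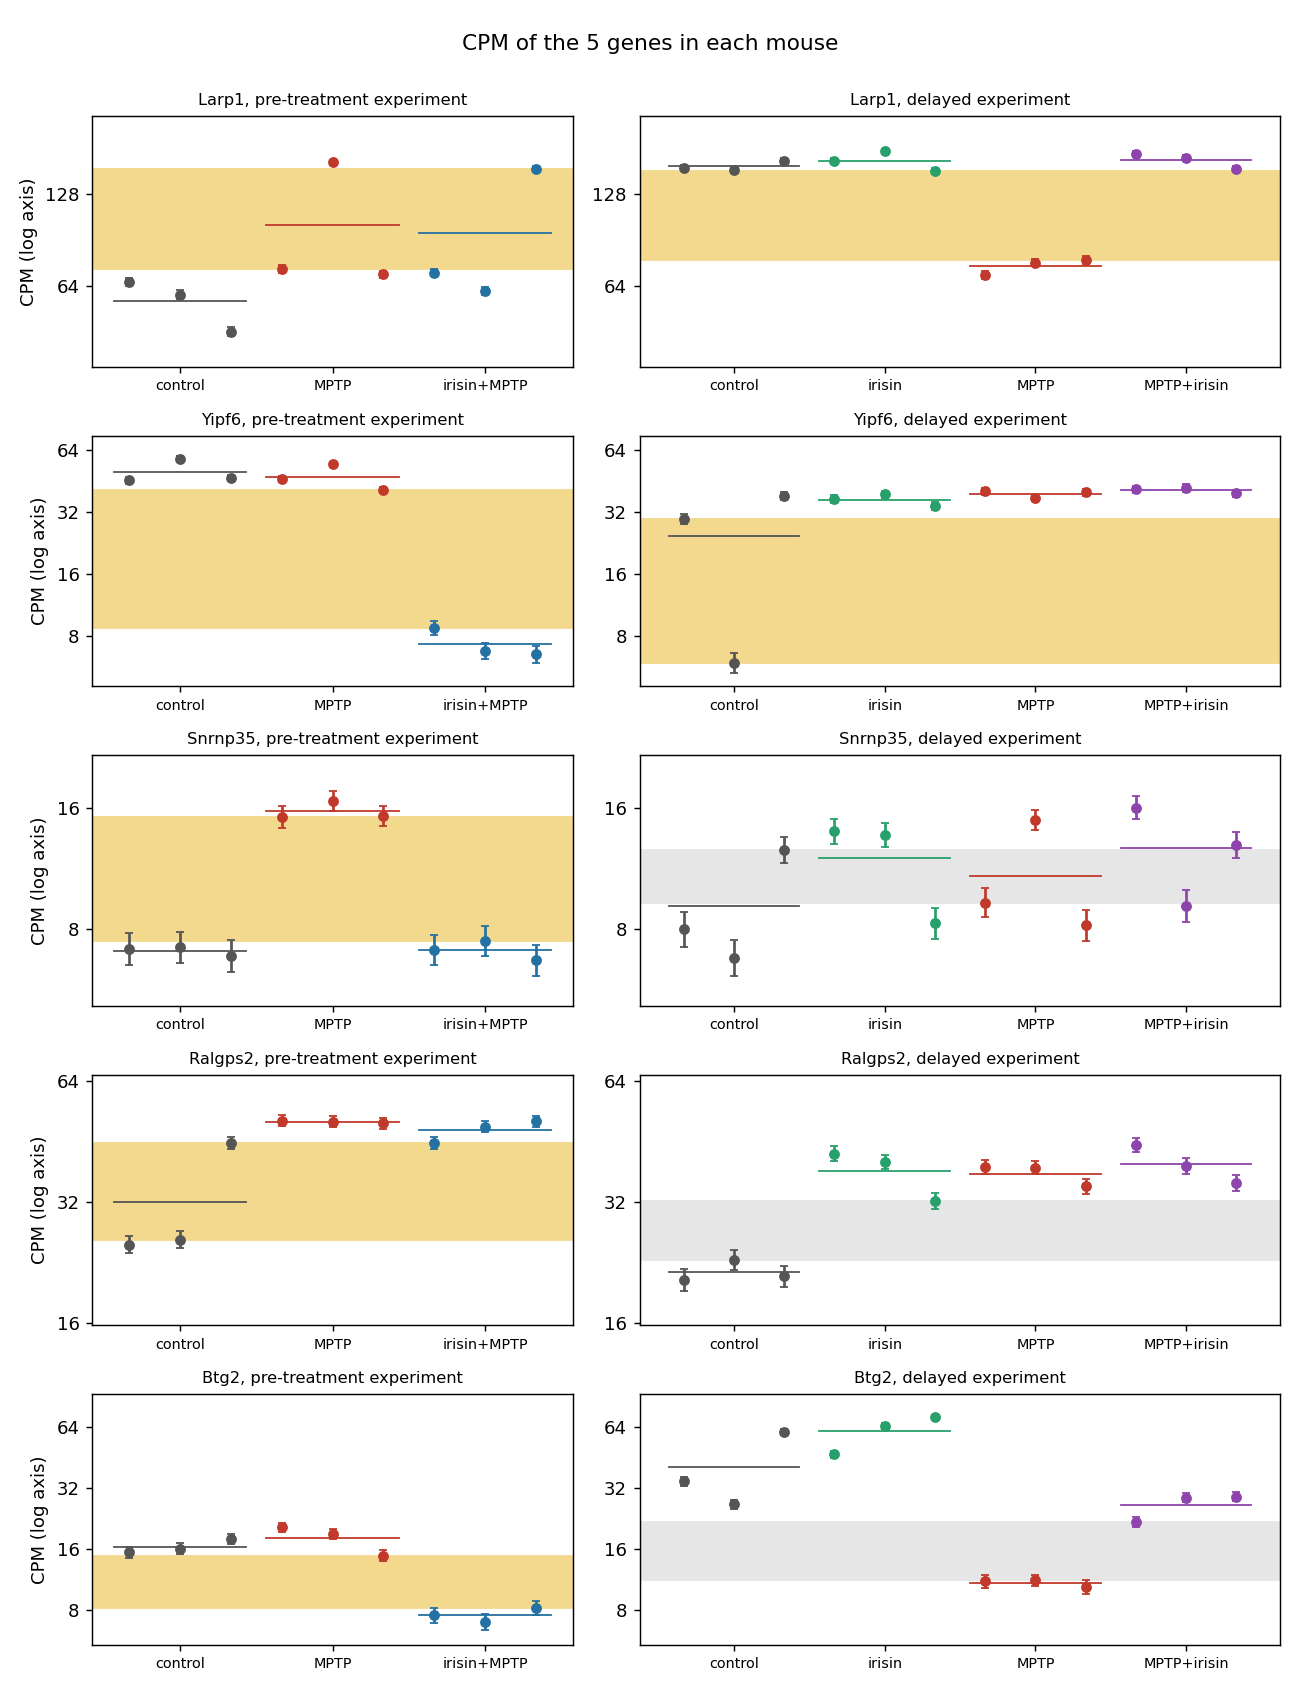
CPM of each gene in each mouse, on a log axis, with exact 95% Poisson intervals of the counts as bars and group means as lines, for the pre-treatment experiment (left) and the delayed experiment (right). The shaded band is the largest gap between mice, in yellow where the gene was two-level and grey where it was not. The band of Larp1 in the pre-treatment experiment runs through the MPTP and the irisin + MPTP groups, whereas that of Snrnp35 separates the MPTP mice from both other groups.

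Larp1 had a low and a high level in both experiments, and the mice on each level changed with the experiment. With pre-treatment, the control mice had 65.9, 60.0 and 45.5 CPM, the MPTP mice 72.7, 162 and 70.0 CPM, and the irisin + MPTP mice 70.7, 61.5 and 154 CPM. Only MPTP mouse 2 and irisin + MPTP mouse 3 were on the high level, so the gap of 1.08 (log2) cut through both of these groups. Among delayed mice, controls had 155, 153 and 163 CPM, the irisin mice 163, 176 and 152 CPM, the MPTP mice 69.6, 76.1 and 77.6 CPM, and the MPTP + irisin mice 172, 167 and 154 CPM. Here the 3 MPTP mice alone were low, below a gap of 0.96, and no other group overlapped them. The low level of the delayed experiment (69.6 to 77.6 CPM) overlapped that of the pre-treatment experiment (45.5 to 72.7 CPM), and so did the high levels (152 to 176 and 154 to 162 CPM), although the tables were scaled separately. The control mice were thus on the low level in one experiment and on the high level in the other.

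The log2 fold change of Larp1 in MPTP mice against control mice was 0.83 ± 0.42 (SE, n = 3 per group) with pre-treatment and -1.08 ± 0.07 (SE, n = 3 per group) with delayed treatment. The value of 0.83 became 0.32 without MPTP mouse 2 of the pre-treatment experiment. Among delayed mice, MPTP + irisin against MPTP gave 1.14 ± 0.07 and irisin mice against control mice 0.06 ± 0.07. In these bulk samples, fewer cells of a type and less RNA per cell cannot be told apart. The summed dopaminergic markers were 268 to 308 CPM in the delayed control mice, 237 to 263 CPM in the irisin mice, 136 to 223 CPM in the MPTP mice and 137 to 180 CPM in the MPTP + irisin mice. They were thus lower in the delayed MPTP mice than in the delayed control mice, as Larp1 and Btg2 were. The markers were low in the MPTP + irisin mice too, where Larp1 had 154 to 172 CPM and Btg2 21.8 to 28.9 CPM. Both genes were higher there than in the MPTP mice. With pre-treatment, the summed markers were 217 to 381 CPM in control and 218 to 431 CPM in MPTP mice, which overlapped. The irisin + MPTP mice had 165 to 274 CPM. The part of the marker levels in these results was not tested.

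Yipf6 had the widest gap of the 5 genes in both experiments, wider than that of 99.3% and 99.5% of tested genes. Control mice of the pre-treatment experiment had 45.5, 57.7 and 46.8 CPM, the MPTP mice 46.1, 54.4 and 40.8 CPM, and the irisin + MPTP mice 8.72, 6.75 and 6.50 CPM. The 3 irisin + MPTP mice were all low, and the gap of 2.16 above them (log2) amounted to 70.8% of the whole range. The log2 fold change of irisin + MPTP against MPTP mice was -2.68 ± 0.17 (SE, n = 3 per group), or 0.156-fold. With delayed treatment, the control mice had 29.6, 5.92 and 38.2 CPM, the irisin mice 37.0, 39.0 and 34.2 CPM, the MPTP mice 40.3, 37.4 and 39.7 CPM, and the MPTP + irisin mice 41.1, 41.7 and 39.3 CPM. A single mouse, control mouse 2, was low there, with 309 reads and an exact 95% Poisson interval of 5.28 to 6.61 CPM that covers counting error only. No mouse given irisin was low in that experiment, and without control mouse 2 the largest gap of Yipf6 was 0.21.

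Snrnp35 separated the MPTP mice from all others in the pre-treatment experiment. The control mice had 7.11, 7.18 and 6.83 CPM, the MPTP mice 15.2, 16.7 and 15.3 CPM, and the irisin + MPTP mice 7.09, 7.45 and 6.66 CPM. The SD within groups was 0.064 on the log2 scale, which was smaller than in all but 5.34% of tested genes, and the gap was 0.98. The log2 fold change was 1.16 ± 0.09 for MPTP against control mice and -1.16 ± 0.09 for irisin + MPTP against MPTP mice, which share the MPTP mice (SE, n = 3 per group). The delayed control mice had 7.97, 6.76 and 12.6 CPM, the irisin mice 14.0, 13.8 and 8.24 CPM, the MPTP mice 9.28, 15 and 8.15 CPM, and the MPTP + irisin mice 16.1, 9.10 and 12.9 CPM. Every group held mice both above and below 10 CPM, the groups overlapped, and the SD within groups was 0.42. Values spread from 6.76 to 16.1 CPM with no gap wider than 0.42, so the range of the pre-treatment experiment was kept and the separation by group was not.

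Ralgps2 was low only in control mice. In the pre-treatment experiment the control mice had 25.1, 25.9 and 45.0 CPM, the MPTP mice 51.2, 50.9 and 50.4 CPM, and the irisin + MPTP mice 45.1, 49.4 and 51.0 CPM. Control mouse 3 was on the high level with the treated mice, just below irisin + MPTP mouse 1. Control mice of the delayed experiment had 20.6, 23.1 and 21 CPM, the irisin mice 42.3, 40.4 and 32.2 CPM, the MPTP mice 39.1, 39.1 and 35.1 CPM, and the MPTP + irisin mice 44.5, 39.5 and 35.8 CPM. All 3 control mice were below all 9 treated mice. The log2 fold change against these control mice was 0.81 ± 0.12 in MPTP mice and 0.83 ± 0.12 in irisin mice (SE, n = 3 per group), with the control mice shared by both comparisons. In the pre-treatment experiment MPTP against control mice gave 0.67 ± 0.20, and 0.99 without control mouse 3.

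Btg2 followed groups in both experiments, with graded values in the delayed one. In the pre-treatment experiment the control mice had 15.4, 16 and 17.9 CPM, the MPTP mice 20.4, 19.0 and 14.8 CPM, and the irisin + MPTP mice 7.51, 6.99 and 8.17 CPM. The irisin + MPTP mice were all low, with a gap of 0.82. Delayed control mice had 34.4, 26.5 and 60.2 CPM, the irisin mice 46.7, 64.5 and 71.1 CPM, the MPTP mice 11.1, 11.2 and 10.4 CPM, and the MPTP + irisin mice 21.8, 28.6 and 28.9 CPM. The MPTP mice were all lowest and close together, while the 9 others covered 21.8 to 71.1 CPM. The log2 fold change of irisin + MPTP against MPTP mice was -1.26 ± 0.14 in the pre-treatment experiment, and that of MPTP + irisin against MPTP mice was 1.28 ± 0.27 in the delayed experiment (SE, n = 3 per group). MPTP against control mice gave 0.14 ± 0.13 in the pre-treatment and -1.89 ± 0.27 in the delayed experiment.

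**Figure D2:**
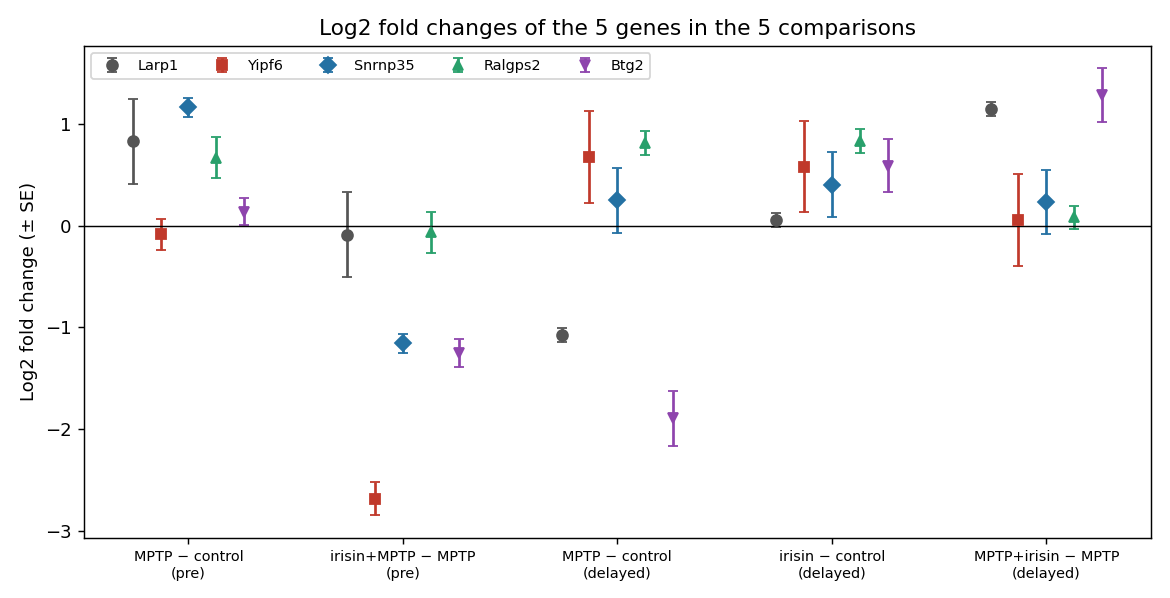
Log2 fold change of each gene in the 5 comparisons (y axis, first group minus second, from edgeR), with bars of 1 SE and n = 3 mice per group. Yipf6 reached -2.68 in irisin + MPTP against MPTP mice, and Larp1 stood at 0.83 and -1.08 in MPTP against control mice of the pre-treatment and the delayed experiment.

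The number of the 5 genes past an adjusted p of 0.05 in edgeR's quasi-likelihood test over all tested genes is given for completeness beside the share of all genes, and nothing is read from it. It was 1 of 5 for MPTP against control mice in the pre-treatment experiment (Snrnp35), where 0.0221% of all genes passed. For irisin + MPTP against MPTP mice it was 3 of 5 (Yipf6, Snrnp35 and Btg2), with 0.0707% of all genes. For MPTP against control mice in the delayed experiment it was 3 of 5 (Larp1, Ralgps2 and Btg2), with 0.132% of all genes. For irisin against control mice it was 1 of 5 (Ralgps2), with 0.109% of all genes, and for MPTP + irisin against MPTP mice it was 1 of 5 (Larp1, the 1 gene that passed), or 0.00456% of all genes.

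The 5 genes did not move as a set. Pairs of them differed by a root mean square (RMS) of 0.43 (Snrnp35 and Ralgps2) to 1.20 (Larp1 and Yipf6) in log2(CPM + 0.5) over the 21 mice, after centring each experiment. On the low side of its own gap in the pre-treatment experiment, irisin + MPTP mice 1 and 2 held 4 of the 5 genes and MPTP mouse 2 held 0. Yipf6 and Btg2 were split identically there, between the irisin + MPTP mice and the rest. Depth did not limit these values, as every gene had at least 309 reads in every mouse. Per length, on the deposited FPKM scale, the medians over the pre-treatment mice were 9.02 for Larp1, 5.67 for Yipf6, 4.99 for Btg2, 4.70 for Snrnp35 and 3.63 for Ralgps2. Those over the delayed mice were 20.0 for Larp1, 9.28 for Btg2, 7.16 for Snrnp35, 4.77 for Yipf6 and 2.75 for Ralgps2. Neighbours in these orders overlapped in their ranges over mice, except Snrnp35 (4.41 to 11.2) and Ralgps2 (1.85 to 3.78) in the pre-treatment experiment. After division by each mouse's total count, the ratio of count to FPKM for 1 gene varied between mice by no more than 0.018 (log2). Counts scaled to the total and deposited FPKM thus gave the same levels.

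**Figure D3:**
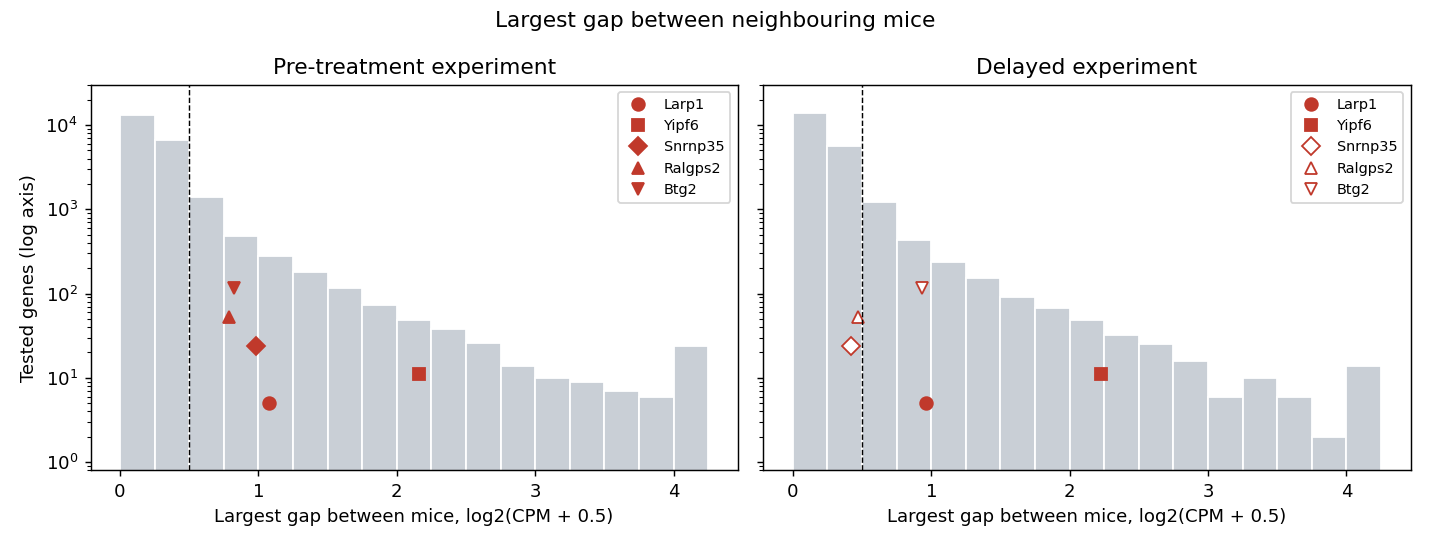
Number of tested genes (y axis, log scale) by the largest gap between neighbouring mice in log2(CPM + 0.5) (x axis), with gaps of 4 or more in the last bar and the limit of 0.5 as a dashed line. Symbols mark the gaps of the 5 genes, filled where two-level, at heights that carry no value. Yipf6 stands at 2.16 and 2.23, and the other genes lie between 0.42 and 1.08.

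Separate levels were common in these tables. The median largest gap over all tested genes was 0.21 in the pre-treatment and 0.20 in the delayed experiment, and 720 and 570 two-level genes had a gap of at least 1. In 55.2% and 46.4% of the two-level genes, 1 mouse stood alone on its side, as control mouse 2 did for Yipf6. The same mouse was alone on the low side in 36 other two-level genes of the delayed experiment and alone on the high side in 9. In that experiment 559 two-level genes had 1 of the 12 mice alone on either side. Splits that left every group whole on one side were found in 18 (1.08%) and 15 (1.24%) of the two-level genes. Of the 5 genes, Yipf6, Snrnp35 and Btg2 were among the former and Larp1 was among the latter. Over the 21153 genes tested in both experiments, 476 were two-level in both, which was 29.2% of the two-level genes of the pre-treatment experiment and 42.1% of those of the delayed experiment, with the two-level genes making up 7.71% and 5.34% of all. Larp1 and Yipf6 belong to these 476.

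Isca1, which encodes a mitochondrial iron-sulfur cluster protein, was the mirror image of Snrnp35 in the pre-treatment experiment. It had 184, 172 and 166 CPM in control mice, 79.4, 85.7 and 82.4 CPM in MPTP mice and 168, 153 and 163 CPM in irisin + MPTP mice. It was two-level again in the delayed experiment, with control mice 1 and 2 (74.5 and 65.9 CPM), irisin mouse 3 (77.5 CPM) and MPTP mouse 2 (75.0 CPM) on the low side, and 169 to 201 CPM in the other 8 mice. The low mice of Isca1 therefore came from 3 groups. Nnt, the mitochondrial nicotinamide nucleotide transhydrogenase, was low in irisin mouse 1 (4.47 CPM) and MPTP + irisin mouse 2 (6.08 CPM) and at 39.8 to 50.6 CPM in the other 10 mice of the delayed experiment. A second row with the symbol Nnt (ENSMUSG00000116207) held 23.5 and 26.9 CPM in these 2 mice and 0 counts in the other 10.

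The genes beside the 5 on the chromosome had gaps near those of all tested genes. Their median gap was 0.19 in the pre-treatment and 0.16 in the delayed experiment, against 0.21 and 0.20 over all. Among the 3 nearest tested genes on each side, 2 of 30 were two-level in the pre-treatment experiment (6.67%) and 3 of 30 in the delayed experiment (10.0%), and 0 had the same mice on the same sides as the gene they neighbour. Over all tested genes 7.37% and 5.50% were two-level. edgeR called 0 of the neighbours in any comparison (60 and 90 tests), with an unadjusted p under 0.05 in 1 and 5 tests, and DESeq2 called 0. Over all genes such a p was found for 6.03 and 6.22% in the pre-treatment comparisons and for 8.33, 8.97 and 3.90% in the delayed ones. Of all genes edgeR called 0.00456 to 0.132% and DESeq2 0.146 to 0.871%, depending on the comparison, so 0 calls among the neighbours set them apart from no other genes. The 6 neighbours of Larp1, with Cnot8, a CCR4-NOT deadenylase subunit, 42.1 kb away, had gaps of no more than 0.24 in either experiment. Beside Snrnp35, Rilpl1 lies 1.96 kb away and had a gap of 0.12, while Kmt5a, a histone H4 methyltransferase 20.8 kb away, was high in control mouse 1 (55.3 CPM) and irisin + MPTP mouse 1 (63.0 CPM) against 23.6 to 31.0 CPM in the 7 others. Pja1, a ubiquitin ligase gene 517 kb from Yipf6, was at 201 to 208 CPM in 4 delayed mice and at 63.1 to 98.9 CPM in 8. Rasal2, 196 kb from Ralgps2, was at 21.8 CPM in control mouse 2 of the delayed experiment and at 56.6 to 76.6 CPM in all others. Ralgps2 was the 1 gene of the 5 with other listed genes inside its bounds, and these were low, with Angptl1 on the opposite strand at no more than 1.26 CPM.

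**Figure D4:**
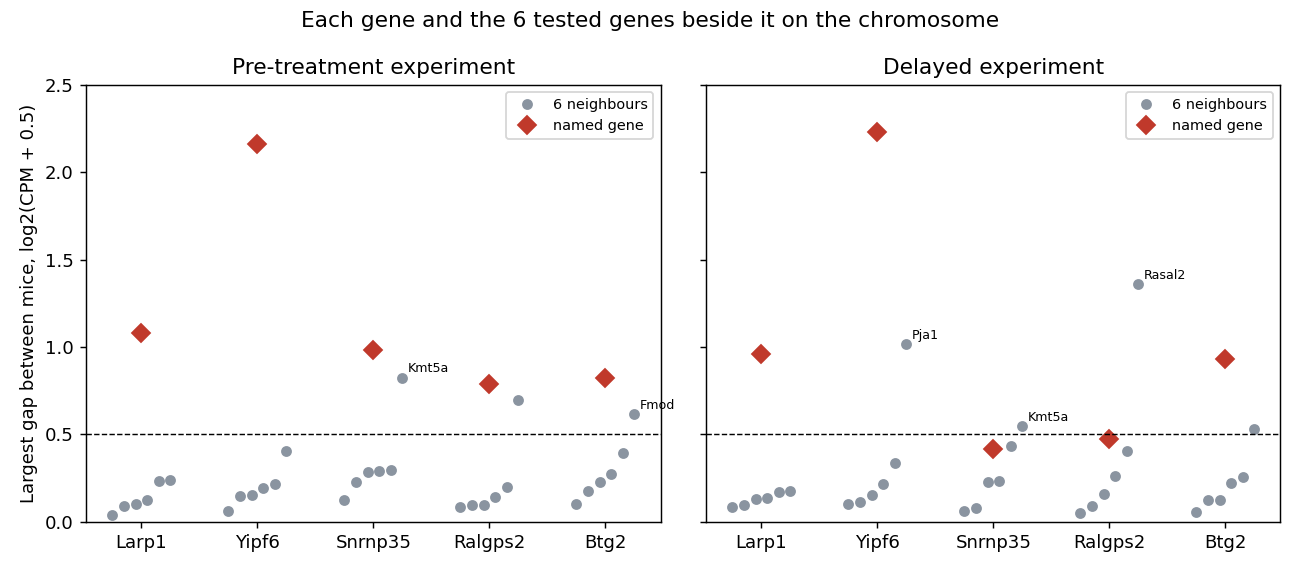
Largest gap between mice in log2(CPM + 0.5) (y axis) for each gene (red diamond) and the 3 nearest tested genes on each side (grey), in the pre-treatment experiment (left) and the delayed experiment (right), with the limit of 0.5 dashed. Two-level neighbours are named. Yipf6 lies at 2.16 and 2.23 above all of its neighbours, while Rasal2 at 1.36 exceeds Ralgps2 in the delayed experiment.

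To find genes with a like pattern, the 3 tested genes with the smallest RMS difference from each of the 5 were taken, over 21 mice and after centring each experiment. A gene with no change at all would differ from Btg2 by its own RMS of 0.79. The genes nearest to Btg2 were Zfp36, an mRNA decay factor (0.29), Dusp1, a phosphatase of MAP kinases (0.32), and Nr4a1, a nuclear receptor (0.35), all immediate early genes, whose transcription is induced within minutes of a stimulus. These differences were 37.1%, 40.8% and 44.7% of that of a flat gene. Nearest to Yipf6 were the heat shock genes Hspa1b (0.59) and Hspa1a (0.61) and the immediate early gene Fos (0.62), against 0.99 for a flat gene. At 59.5%, 61.2% and 62.7% of the flat value, they were less near than the partners of Btg2. For Larp1, Snrnp35 and Ralgps2 the nearest genes came no closer than 65.8%, 66.4% and 63.9% of the flat value. They were Gm45224, Gm20700 and Ier3ip1 for Larp1, Gm18609, Slfn5 and Dennd3 for Snrnp35, and Adamts20, Per2 and Banp for Ralgps2. Gm45224 (mean 0.32 and 0.23 CPM in the pre-treatment and the delayed experiment) and Gm20700 (0.45 and 0.39 CPM) were near the floor, below the 0.5 CPM added before taking logs.

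Zfp36 had 5.85 ± 1.59 CPM in control, 8.48 ± 2.48 in MPTP and 4.69 ± 0.21 in irisin + MPTP mice (SD, n = 3). With delayed treatment it had 20.5 ± 7.50 CPM in control, 27.0 ± 4.82 in irisin, 6.61 ± 1.02 in MPTP and 13.8 ± 2.45 in MPTP + irisin mice (SD, n = 3). This order of groups in the delayed experiment was that of Btg2, and the MPTP mice lay below all others in both genes. The log2 fold change in delayed MPTP against control mice was -1.63 ± 0.25 for Zfp36, -1.13 ± 0.19 for Dusp1 and -0.82 ± 0.27 for Nr4a1 (SE, n = 3 per group). These are a description with no test, since the genes were picked for their likeness to Btg2 over the same mice.

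**Figure D5:**
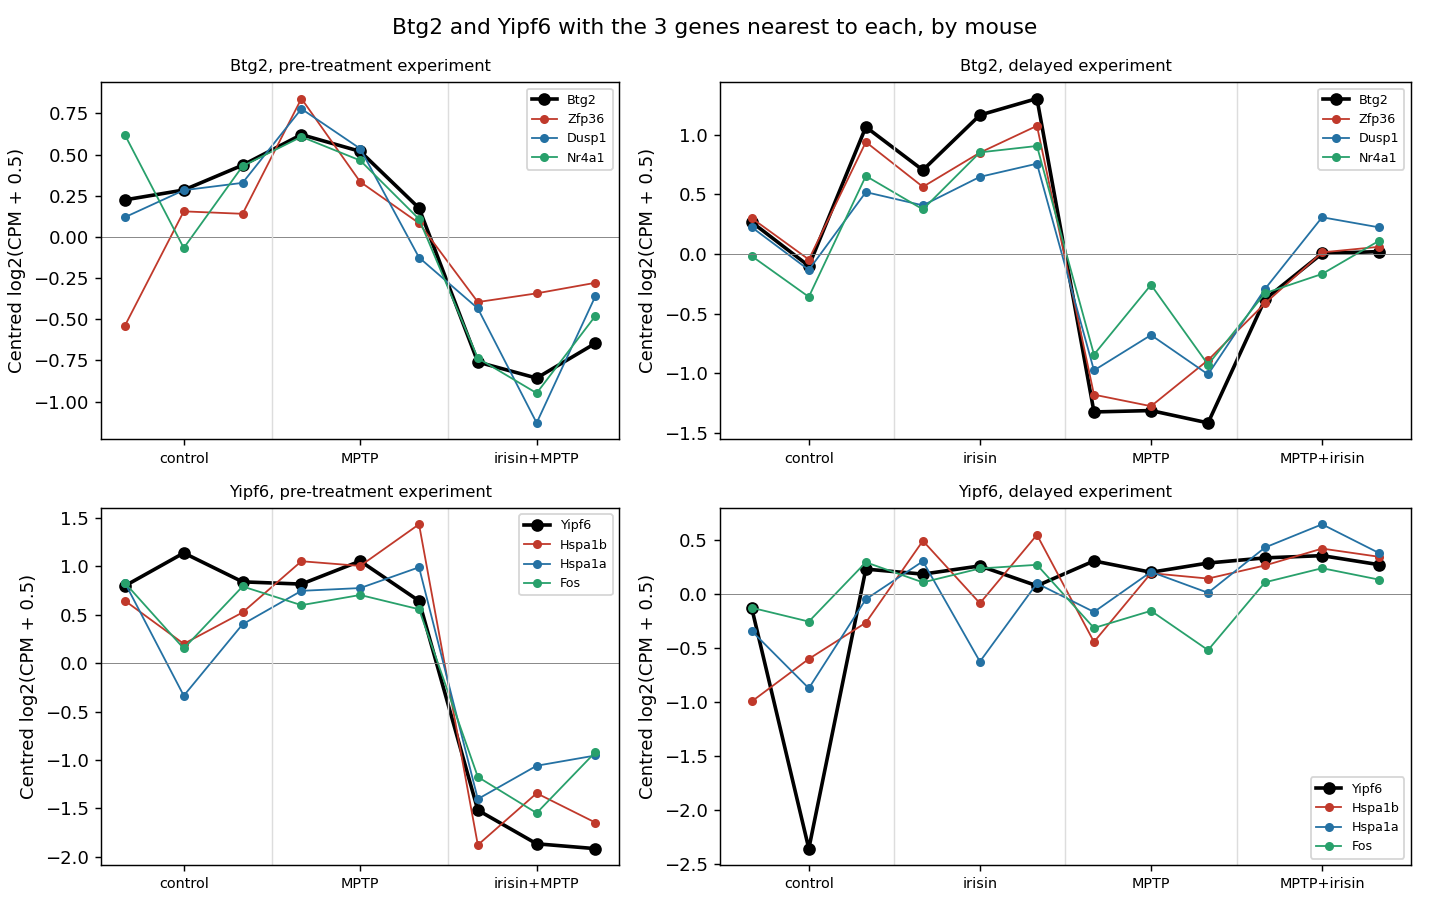
Log2(CPM + 0.5) per mouse after centring each experiment (y axis) for Btg2 (top, black) with Zfp36, Dusp1 and Nr4a1, and for Yipf6 (bottom, black) with Hspa1b, Hspa1a and Fos, in the pre-treatment (left) and delayed (right) experiment. The lines of Btg2 and its 3 nearest genes run near one another in most mice. In control mouse 1 of the pre-treatment experiment, however, Zfp36 is at its lowest (4.01 CPM) while Btg2 is at 15.4 CPM. Control mouse 2 of the delayed experiment is low in Yipf6, at 5.92 CPM, without a like drop in Fos (28.2 CPM). In that mouse Hspa1a is at its lowest of the delayed mice, at 10.3 CPM against 12.3 to 30.4 CPM in the others, and Hspa1b is at 12.6 CPM.

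Since Btg2 had near partners, its promoter was searched for the motif of each of 2 well-known activity-dependent elements, in the 250 bases before the RefSeq start (GRCm38.p6). These were the full cAMP response element TGACGTCA, bound by CREB, and the CArG box, bound by serum response factor. Both motifs read the same on both strands and do not overlap one another. TGACGTCA was found for 1.77% of 27025 genes with a promoter window and the CArG box for 1.62%. Btg2 holds TGACGTCA 166 bases before its start, and so does Dusp1 143 bases before its start. Zfp36 holds a CArG box 58 bases before its start, and Nr4a1 neither motif. The sites are shown with the motif in capitals, to compare Btg2 with its nearest genes, at chr1:134079303-134079332, chr17:26508597-26508626 and chr7:28379267-28379296, all on the minus strand.
Btg2: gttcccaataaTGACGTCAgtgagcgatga
Dusp1: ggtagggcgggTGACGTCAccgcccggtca
Zfp36: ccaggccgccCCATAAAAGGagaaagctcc
The windows of Larp1, Yipf6, Snrnp35 and Ralgps2 held neither of these letter strings. A match is a description of the sequence only, and binding was not measured.

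Other genes of the same pathways were taken from 6 lists of 82 genes. In the 5 lists for LARP proteins and control of translation, the YIP1 family, the minor spliceosome, Ral GTPases, and BTG/TOB with CCR4-NOT, 61 of 63 genes were tested and 0 passed the adjusted threshold in any of the 5 comparisons with edgeR. An unadjusted p under 0.05 was found in 28 of these 305 tests, and DESeq2 called 3. Over all genes, 3.90 to 8.97% had such a p, depending on the comparison. Of all genes edgeR called 0.00456 to 0.132% and DESeq2 called 0.146 to 0.871%. List medians lay between -0.08 and 0.09 (log2), beside medians of all genes within 0.01 of 0. Larp1b, the closest paralog of Larp1, gave 0.01 ± 0.09 and -0.03 ± 0.10 for MPTP against control mice in the pre-treatment and the delayed experiment. Two-level members of these lists were Larp4 in both experiments, Akt1s1, Snrnp48 and Cnot7 in the pre-treatment experiment, and Eif4e and Exoc2 in the delayed experiment. They made up 0 to 12.5% of the tested genes of a list, beside 7.37% and 5.50% of all tested genes in these experiments.

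The list of immediate early and p53 target genes, 19 of 19 tested, was the only one of the 6 with calls by edgeR. In irisin + MPTP against MPTP mice 3 of 19 fell and 0 rose, beside 0.0707% of all genes called, and the list median was -0.25. These were Klf2, a transcription factor (-2.24 ± 0.15, adjusted p = 0.000926), Atf3, a stress-induced transcription factor (-3.32 ± 0.35, adjusted p = 0.0172), and Fos (-1.88 ± 0.22), all by edgeR. An unadjusted p under 0.05 was found for 9 of the 19, against 6.22% of all genes, and DESeq2 called 7, against 0.857% of all genes. None of the p53 targets Cdkn1a (log2 fold change 0.60), Mdm2 (-0.11), Ccng1 (-0.08), Sesn1 (0.07) and Sesn2 (0.12) was among the 9. Nor were the p53 targets Phlda3 (0.04), Trp53inp1 (-0.14), Plk2 (-0.25) and Gadd45a (-0.02). The list was chosen with results of these mice known, so the calls are not independent evidence of a direction. No p is given for Fos, which was picked for its likeness to Yipf6 over the same mice. Dusp1 and Nr4a1 were picked likewise for their likeness to Btg2. The counts of this list in each comparison include Fos, Dusp1 and Nr4a1 and are a description only. Without irisin + MPTP mouse 1 or irisin + MPTP mouse 3 the count called by edgeR was 1. In the other 4 comparisons 0 of 19 passed with edgeR. For MPTP against control mice with pre-treatment, 5 of the 19 had an unadjusted p under 0.05 (6.03% of all genes) and DESeq2 called 2 (0.459% of all genes). For delayed MPTP against control mice these were 8 (8.33%) and 3 (0.871%), with a list median of -0.29. For irisin against control mice they were 1 (8.97%) and 0 (0.721%), and for MPTP + irisin against MPTP mice 6 (3.90%) and 1 (0.146%). Of the p53 targets, Cdkn1a (log2 fold change 0.85) and Trp53inp1 (0.36) were among the 5. Cdkn1a (-0.56) was among the 8, and Sesn2 (0.24) was among the 6.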

How the data were processed

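RNA-seq of 21 mice was used. The authors counted reads per gene with featureCounts and deposited raw counts, and they also deposited FPKM values, which were used as an alternative and for levels per length. The submitters' processing notes name HISAT, StringTie, edgeR and mm9 without roles. The tables' coordinates match GENCODE vM21 on GRCm38, with 92.0% of genes identical, and were used as such. The annotation and use of strand in counting are not given in the sources used here.

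Counts were fitted with edgeR 4.0.16 in R 4.3.3 (two-sided quasi-likelihood test with TMM scaling, filterByExpr minima of 10 counts and 15 in total, p-values adjusted by Benjamini-Hochberg across every tested gene), with all groups of an experiment in one fit and 5 comparisons. Levels are TMM-scaled CPM, and gaps use log2(CPM + 0.5). Python 3.11.15 with numpy 2.4.6 and scipy 1.17.1 was used for the rest. Both steps were tested on simulated data. The 21 pairs of mice within groups differed by more than sampling noise (least chi-square per gene 37.5).

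The 5 genes and the lists were chosen with earlier results of these data known. The text names the 5 genes, the 3 nearest patterns of each, chromosome neighbours, list genes that were called or two-level, and Isca1 and Nnt. Neighbours in detail, Sftpc, Clps and Larp1b were chosen after their values were seen. Alternatives were DESeq2 1.42.0, median ratio scaling, all genes with any count, only the 2 compared groups, a replicate block, leaving out each mouse, deposited FPKM, and other pseudocounts and limits.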

Additional observations from a re-analysis of the deposited data

Results flagged for a closer look

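For Larp1, the log2 fold change of MPTP against control mice differed between the experiments by -1.91 (delayed minus pre-treatment). Without MPTP mouse 2, the pre-treatment value of 0.83 in this difference was 0.32. Every MPTP mouse was above every control mouse in the pre-treatment experiment, and every MPTP mouse was below every control mouse in the delayed experiment. For Btg2, the log2 fold change of mice given irisin with MPTP against MPTP mice differed by 2.54 between the experiments, in which irisin was given before or after MPTP. All 3 irisin + MPTP mice were below the MPTP mice in the pre-treatment experiment, and all 3 MPTP + irisin mice were above them in the delayed experiment. Neither difference was tested, the genes were chosen for their levels, and experiment and schedule cannot be told apart.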

How the results depend on the processing

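The 5 genes stayed two-level in the pre-treatment experiment under every alternative except a limit of 1 on the gap, which left 2 (Larp1 and Yipf6). In the delayed experiment a limit of 1 left 1 (Yipf6) and at least 2 mice on each side left 1 (Larp1). Without single mice the count was 5 to 5 and 2 to 3. An added limit of 0.4, chosen after seeing the data, added Ralgps2 in the delayed experiment. Two-level genes numbered 2544 with a pseudocount of 0.1 CPM in the pre-treatment experiment, 747 and 647 with at least 2 mice on each side, 720 and 570 with a limit of 1, 1085 with a mean of at least 5 CPM (pre-treatment, added), and 1797 to 1891 and 1271 to 1314 without single mice. With the 5 nearest genes on each side, 4 and 6 neighbours were two-level. Genes called in the 5 comparisons, in the order of the report, numbered 104, 194, 191, 158 and 32 with DESeq2. With only the 2 compared groups they were 10, 21, 10, 14 and 9, and with all genes of any count the last was 2. Without single mice they ranged from 4 to 17, 10 to 26, 16 to 35, 16 to 29 and 1 to 7. The called genes of the 6 lists numbered 3, 8, 4, 0 and 1 by DESeq2, and 0 to 1, 1 to 3, 0 to 1, 0 to 1 and 0 to 0 without single mice. With the replicate number as a block, 2, 8, 17, 14 and 1 genes were called. The numbers do not pair the mice, since same-numbered mice were different animals, their deviations correlated from -0.10 to 0.16 and from -0.08 to 0.04, and 4 of 9 and 1 of 12 mice correlated best with their own number. The cause of these shifts was not tested. Of the fold changes of the 5 genes, all but 3 values moved by less than the SD within groups. The 3 exceptions were Ralgps2 without control mouse 3 in the pre-treatment experiment (0.99) and Btg2 without control mouse 3 in the delayed experiment (-1.49 in MPTP and 1.0 in irisin mice). Within that SD, the values of Yipf6 in delayed MPTP and irisin against control mice (0.67 and 0.58) were 0.21 and 0.12 without control mouse 2. Depth did not limit the 5 genes.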
